A study of Mus musculus with 9 samples.

Results

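The neurotrophin system of the hippocampus was described through 8 genes, 2 of them encoding ligands (Ntf3 and Bdnf), 3 encoding signalling receptors (Ntrk2, Ntrk3 and Ngfr) and 3 encoding sorting receptors of the sortilin family (Sort1, Sorcs1 and Sorcs3). They were found by symbol among the 18275 genes of the deposited table, and all 8 were measured in 9 libraries of dissected hippocampus. The 4 Nestin;BrafKE/+ libraries came from mice heterozygous for the K499E allele of Braf, and the 5 Braf+/+ libraries from wild-type littermates, with 1 male C57BL/6N mouse aged 11 to 15 weeks per library and no drug treatment in the labels. The allele encodes a more active kinase upstream of ERK and is switched on by Nestin-Cre in embryonic neural stem cells, so that neurons and glia descended from them carry it, while microglia and endothelium have another origin. The labels do not say whether the Braf+/+ mice carried Cre. The 8 genes were selected from the neurotrophin family with the genotype contrast in these same 9 libraries already known, so the differences between genotypes in these genes are given as a description, with intervals and without p-values.

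Neurotrophins are secreted as precursors that proprotein convertases cut to the mature growth factor. Mature BDNF binds the receptor tyrosine kinase TrkB (Ntrk2) and mature NT-3, the product of Ntf3, binds mainly TrkC (Ntrk3), and both receptors feed the RAS-RAF-ERK cascade in which BRAF acts. Uncut proneurotrophins bind p75NTR (Ngfr) together with a sortilin family member, which also sorts neurotrophins and their receptors inside the cell. In the adult hippocampus Bdnf is known from pyramidal and dentate granule neurons, Ntf3 from dentate granule and CA2 neurons, full-length TrkB from neurons and truncated TrkB mainly from astrocytes.

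The values are a batch-adjusted signal in normalised counts, and the library totals lay between 19551312 and 20091532. The library names given in the labels fall into 3 series, called A (Nestin;BrafKE/+ replicate 1 with Braf+/+ replicates 1, 2 and 3), B (Nestin;BrafKE/+ replicates 2 and 3 with Braf+/+ replicate 4) and C (Nestin;BrafKE/+ replicate 4 with Braf+/+ replicate 5). The mean signal of Braf itself was 2786 ± 153 (SD) in the 5 controls and 2264 ± 144 (SD) in the 4 mutants, a log2 difference of -0.30 (limma, adjusted p = 0.0378), but a gene total does not show the allele. Dusp6, an ERK-induced phosphatase that reports pathway activity, rose from 1009 ± 81.6 to 2000 ± 84.9, a log2 difference of 0.99 (adjusted p = 0.000325). Markers of hippocampal subfields were present, with Prox1 of dentate granule cells at 2002 ± 79.1, Fibcd1 of CA1 at 2991 ± 225, Rgs14 of CA2 at 1785 ± 161 and Grik4 of CA3 at 1012 ± 90.0 in Braf+/+ mice. Ttr, the defining choroid plexus gene, had a mean of 102581 ± 161770 in Braf+/+ and 13813 ± 9337 in Nestin;BrafKE/+ mice, and the level of its list was highest in Braf+/+ replicates 2 and 4.

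Among the 8 genes, Ntf3 was much lower in Nestin;BrafKE/+ mice, Ngfr, Sorcs3 and Sorcs1 had higher means, and Bdnf, Ntrk2, Ntrk3 and Sort1 had means of 1.01 to 1.08 times the control mean. Ntf3 alone had an adjusted p under 0.05 in the fit over all 16196 genes tested, in which 2.88% of genes passed, 1.52% higher and 1.36% lower. The groups did not overlap for Ntf3 (all Nestin;BrafKE/+ values below) and Sorcs3 (all above), 2 of 8 genes where 15.7% of all genes tested did not overlap. Since the genes were chosen with this contrast known, nothing is read from either count. In bulk tissue, fewer cells of a type and less RNA per cell cannot be told apart, which holds for every value below.

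**Figure D1:**
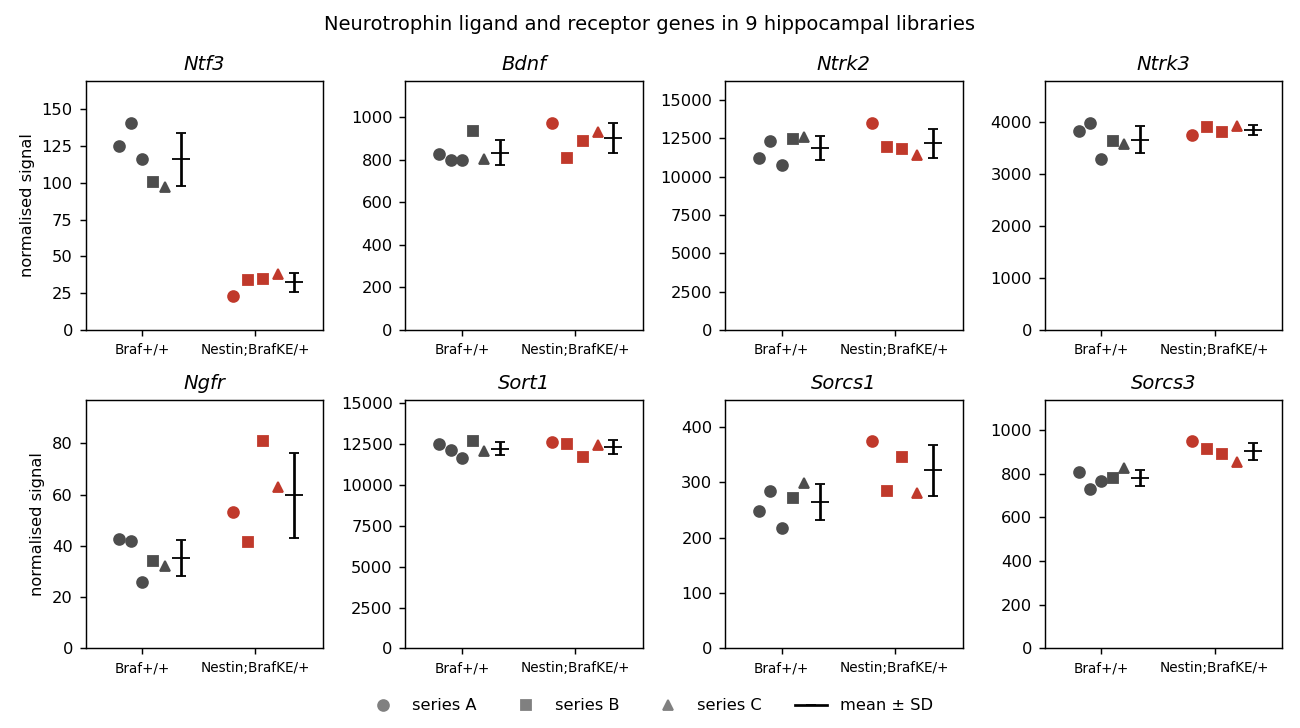
Normalised signal (y axes, starting at 0, a different scale in each panel) of the 8 genes in each library, with Braf+/+ in grey, Nestin;BrafKE/+ in red, marker shape for the series of library names, and the bar beside each group for mean ± SD. The 4 Nestin;BrafKE/+ values of Ntf3 (23.1 to 37.9) sit far below the 5 Braf+/+ values (97.1 to 141.0), whereas the groups of Bdnf, Ntrk2, Ntrk3 and Sort1 overlap.

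Ntf3 (ENSMUSG00000049107), which encodes NT-3, lies on chromosome 6 from 126078375 to 126143873 on the minus strand of GRCm39, with 3 annotated transcripts, all coding. The bases before its annotated starts are shown because Ntf3 carries the largest difference of the 8 genes. The RefSeq promoter table (GRCm38.p6) holds 2 Ntf3 starts, and the 250 bases before each are printed 5′ to 3′ on the coding strand, with an E-box (CACGTG) or an Sp1 motif (GGGCGG) in capitals, as read on either strand.
Ntf3 upstream start, chr6:126166745-126166994 (-): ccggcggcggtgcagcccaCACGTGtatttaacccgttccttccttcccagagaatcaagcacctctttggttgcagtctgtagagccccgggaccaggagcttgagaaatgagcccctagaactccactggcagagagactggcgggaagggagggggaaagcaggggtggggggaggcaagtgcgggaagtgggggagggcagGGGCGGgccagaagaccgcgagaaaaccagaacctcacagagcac
Ntf3 downstream start, chr6:126164961-126165210 (-): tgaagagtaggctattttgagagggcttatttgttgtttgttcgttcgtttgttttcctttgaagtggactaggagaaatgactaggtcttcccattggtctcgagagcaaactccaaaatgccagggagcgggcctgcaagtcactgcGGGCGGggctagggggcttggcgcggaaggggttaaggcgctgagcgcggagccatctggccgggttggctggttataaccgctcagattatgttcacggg
The E-box lay 231 and the Sp1 motif 45 bases before the upstream start, and 1 Sp1 motif lay 101 bases before the downstream start. Of all 32851 promoters in the table, 6.02% held the E-box and 32.7% the Sp1 motif. GC content was 62% and 54% in these windows, against a median of 52.4% over all promoters. None of TGACGTCA (the CRE, found in 1.55% of promoters), TGACG (its core, which the CRE contains, 17.8%), TGACTCA (AP-1, 4.46%), CCGGAAG (ETS, 6.91%) or GCGGGGGCG (Egr, 2.57%) was found in either window, which says only that these letters are not there.

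The signal of Ntf3 was 23.1, 33.8, 34.9 and 37.9 in Nestin;BrafKE/+ replicates 1 to 4, and 125.2, 141.0, 116.5, 100.4 and 97.1 in Braf+/+ replicates 1 to 5. Every Nestin;BrafKE/+ library was thus below every Braf+/+ library. The group means were 32.4 ± 6.46 (SD, n = 4) and 116 ± 18.1 (SD, n = 5), so the control mean was 3.58 times the mutant mean. The log2 difference was -1.82 (SE 0.21, 95% interval -2.29 to -1.35), the 25th lowest of the 16196 genes tested. Within series it was -2.41 (A), -1.52 (B) and -1.33 (C), negative in each, and Nestin;BrafKE/+ replicate 1, the only mutant library of series A, had the lowest value. Without that library, and so without series A in the contrast, the difference was -1.44. Ntf3 and Braf are both on chromosome 6, 86.4 Mb apart. Of the 103 genes tested within 5 Mb of Ntf3, Ntf3 itself included, 4 had an adjusted p under 0.05, beside 2.88% of all genes tested. With Ntf3 among the 4, nothing is read from this count. An antisense lncRNA, Gm67883, overlaps exons of Ntf3 in the annotation, and the libraries were stranded.

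Markers of the cell types known for Ntf3 were measured beside it. Prox1 had a log2 difference of -0.05 (adjusted p = 0.692), and the dentate granule list had a level (each gene's log2 signal less its mean over the libraries, averaged over the list) of -0.14 to 0.02 in Nestin;BrafKE/+ and -0.00 to 0.07 in Braf+/+ libraries. In 3 of the 4 mutants this level lay below every control. The 10 genes of the list did not move together, with 5 higher, 5 lower and a median log2 difference of -0.004. Past the threshold, 1 rose and 3 fell. Those 4 were looked up after their values were seen and were Calb1 (0.43, adjusted p = 0.0178), which encodes a calcium buffer, and Dsp (-0.78, adjusted p = 0.0106), Lct (-0.39, adjusted p = 0.0161) and Stxbp6 (-0.41, adjusted p = 0.0104). Pdyn, a granule cell peptide gene outside the list and also named after its value was seen, fell by 0.93 on the log2 scale (adjusted p = 0.00548). Rgs14, which defines CA2, was 1468 ± 86.4 against 1785 ± 161, a log2 difference of -0.28 (adjusted p = 0.0934), with all mutants below all controls, and 0 of the 8 CA2 genes passed the threshold by limma, 3 having an unadjusted p under 0.05. No share of all genes with an unadjusted p under 0.05 is given here, so nothing is read from that count. The CA2 genes did not move together, with 4 higher, 4 lower and a median log2 difference of 0.01. The lowest of the 8, Map3k15, had a difference of -0.79 (adjusted p = 0.120). Pcp4, also with an unadjusted p under 0.05 and named after its value was seen, was higher by 0.22 (adjusted p = 0.199). The part of these cells in the Ntf3 difference was not tested beyond these values.

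Bdnf (ENSMUSG00000048482, chromosome 2, 109505045 to 109557475, plus strand) is transcribed from several promoters that share 1 coding exon, and its signal sums 18 annotated transcripts. The RefSeq table holds 7 Bdnf starts. The window with the only CRE core found among them is shown, because the CRE is the element that CREB, encoded by Creb1, binds. TGACG, on the opposite strand here, is in capitals as CGTCA and begins 35 bases before the start.
Bdnf start with a CRE core, chr2:109692186-109692435 (+): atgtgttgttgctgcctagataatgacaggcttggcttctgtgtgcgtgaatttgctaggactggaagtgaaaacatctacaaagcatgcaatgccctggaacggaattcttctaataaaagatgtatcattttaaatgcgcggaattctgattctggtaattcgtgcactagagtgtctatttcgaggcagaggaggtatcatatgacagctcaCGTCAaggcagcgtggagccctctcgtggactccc
The signal of Bdnf was 973.8, 807.7, 886.5 and 927.3 in Nestin;BrafKE/+ replicates 1 to 4, and 826.7, 799.1, 798.4, 934.0 and 804.7 in Braf+/+ replicates 1 to 5. The groups overlapped, since Braf+/+ replicate 4 lay within the upper mutant values and Nestin;BrafKE/+ replicate 2 within the lower controls. The mutant and control means were 899 ± 70.5 (SD, n = 4) and 833 ± 57.8 (SD, n = 5), with a log2 difference of 0.11 (SE 0.08, 95% interval -0.07 to 0.29). The direction was not shared between series, being 0.27 (A), -0.14 (B) and 0.20 (C). Without Braf+/+ replicate 4, whose choroid plexus level was 2.02, and so without series B in the contrast, the difference was 0.24. The interval for all 9 libraries leaves room for a rise of up to 1.22-fold.

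Ntrk2 (ENSMUSG00000055254, chromosome 13, 58954176 to 59281784, plus strand) encodes TrkB, and its signal sums 40 annotated transcripts, full-length and truncated forms together. It was 13537, 11909, 11815.5 and 11426 in Nestin;BrafKE/+ replicates 1 to 4, and 11228, 12304, 10784, 12431 and 12606 in Braf+/+ replicates 1 to 5. Nestin;BrafKE/+ replicate 1 was the highest library and the other 3 mutants lay inside the control range. The log2 difference was 0.04 (SE 0.07, 95% interval -0.12 to 0.19), with 0.25, -0.07 and -0.14 within series A, B and C, and its sign turned to -0.10 without Nestin;BrafKE/+ replicate 1.

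Ntrk3 (ENSMUSG00000059146, chromosome 7, 77825707 to 78387760, minus strand), the TrkC receptor of NT-3, was 3748, 3920, 3809 and 3932 in Nestin;BrafKE/+ replicates 1 to 4, and 3829, 3998, 3290, 3641 and 3589 in Braf+/+ replicates 1 to 5. The mutants lay within the control range, with a mean of 3852 ± 89.1 (SD, n = 4) against 3669 ± 267 (SD, n = 5). The log2 difference was 0.07 (SE 0.06, 95% interval -0.07 to 0.21). The interval of the receptor thus ended at 0.21, where the difference of its ligand gene Ntf3 was -1.82. Exons of Ntrk3 overlap the antisense lncRNA Gm9885.

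Ngfr (ENSMUSG00000000120, chromosome 11, 95459638 to 95478561, minus strand), which encodes p75NTR, was the lowest of the 8 genes per kilobase in Braf+/+ mice. Its signal was 53.2, 41.7, 80.9 and 62.8 in Nestin;BrafKE/+ replicates 1 to 4, and 42.7, 42.0, 25.9, 34.1 and 32.0 in Braf+/+ replicates 1 to 5. All mutants but 1 were above every control, and Nestin;BrafKE/+ replicate 2 lay just below the 2 highest controls. The mutant mean of 59.7 ± 16.6 (SD, n = 4) was 1.69 times the control mean of 35.4 ± 7.08 (SD, n = 5). The log2 difference was 0.72 (SE 0.26, 95% interval 0.15 to 1.30), the widest interval of the 8 genes, and was positive in each series, at 0.55, 0.75 and 0.95. The list of oligodendrocyte precursor genes, a glial type in which p75NTR can be expressed, had a higher level in every Nestin;BrafKE/+ library (0.08 to 0.22) than in every Braf+/+ library (-0.23 to -0.02), with 1 of its 7 genes past the threshold, higher. The mural and meningeal list overlapped, at -0.10 to 0.16 against -0.40 to 0.52, and 1 of its 12 genes passed, Col1a1 (0.96, adjusted p = 0.0214), a collagen named after its value was seen. Their part in the Ngfr difference was not tested.

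The sortilin family members differed from each other. Sort1 (ENSMUSG00000068747, chromosome 3, 108191285 to 108268842, plus strand) encodes sortilin, the co-receptor of p75NTR for proneurotrophins. Its signal ran from 11714 to 12641 in the 4 Nestin;BrafKE/+ libraries and from 11677 to 12687 in the 5 Braf+/+ libraries, nearly the same range. The log2 difference of 0.01 (SE 0.05, 95% interval -0.09 to 0.12) was the smallest of the 8 genes and had the narrowest interval.

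Sorcs3 (ENSMUSG00000063434, chromosome 19, 48194464 to 48793944, plus strand), a neuronal sorting receptor, was 949.7, 914.0, 889.5 and 854.5 in Nestin;BrafKE/+ replicates 1 to 4, and 806.8, 731.1, 765.6, 781.4 and 824.7 in Braf+/+ replicates 1 to 5. Every mutant was above every control, although the difference was small, with means of 902 ± 40.2 (SD, n = 4) and 782 ± 36.4 (SD, n = 5), a ratio of 1.15. The log2 difference was 0.21 (SE 0.07, 95% interval 0.06 to 0.35), with 0.31, 0.21 and 0.05 within series A, B and C.

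Sorcs1 (ENSMUSG00000043531, chromosome 19, 50131737 to 50667093, minus strand) is the neighbour of Sorcs3, with 1.34 Mb between them. Its signal was 374.5, 285.1, 346.4 and 281.2 in Nestin;BrafKE/+ replicates 1 to 4, and 248.4, 285.0, 218.0, 272.2 and 299.3 in Braf+/+ replicates 1 to 5. Nestin;BrafKE/+ replicates 1 and 3 were above all controls and the other 2 among them. The log2 difference of 0.28 (SE 0.14, 95% interval -0.02 to 0.58) came to 0.59, 0.21 and -0.09 within series A, B and C, and to 0.08 without Nestin;BrafKE/+ replicate 1.

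**Figure D2:**
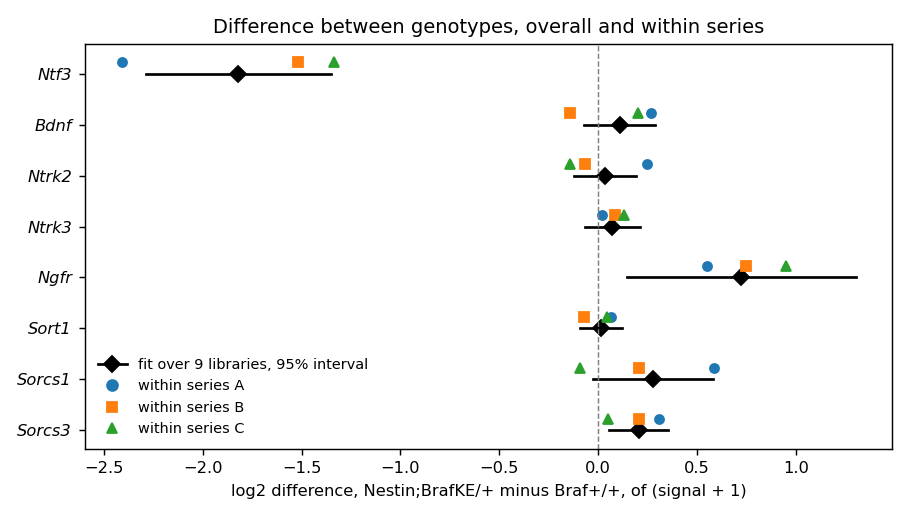
Log2 difference between genotypes, Nestin;BrafKE/+ minus Braf+/+, of the signal plus 1 (x axis) for each of the 8 genes, with the black diamond and line for the fit over all 9 libraries and its 95% interval, and coloured points for the difference within series A, B and C. The points of Ntf3 (-2.41 to -1.33), Ngfr (0.55 to 0.95), Sorcs3 (0.05 to 0.31) and Ntrk3 (0.02 to 0.13) stay on one side of 0. Those of Bdnf, Ntrk2, Sort1 and Sorcs1 fall on both sides.

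Levels were compared between genes only per kilobase, of merged exons unless stated. In Braf+/+ mice Sort1 was highest at 1488.5 ± 47.3 (SD, n = 5) signal per kb, followed by Ntrk2 at 397 ± 27.1. Ntrk3 at 117 ± 8.51, Bdnf at 110 ± 7.62 and Sorcs3 at 110 ± 5.10 came next and, at this length, did not differ from each other beyond their spread. Ntf3 followed at 66.8 ± 10.4, Sorcs1 at 30.7 ± 3.72 and Ngfr at 10.2 ± 2.05, with no overlap between these neighbours.

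In Nestin;BrafKE/+ mice the order of the lower genes was different. Sorcs1 was at 37.4 ± 5.35 (SD, n = 4) signal per kb, above Ntf3 at 18.7 ± 3.72, which now lay in the range of Ngfr at 17.3 ± 4.80. The ratio of Bdnf to Ntf3 per kb was 1.68 ± 0.33 in Braf+/+ (1.30 to 2.13) and 6.63 ± 2.02 in Nestin;BrafKE/+ mice (5.47 to 9.65), so BDNF transcript exceeded NT-3 transcript in all 9 libraries and by more in the mutants. The ratio of Ntrk2 to Ntrk3 was 3.40 ± 0.25 in Braf+/+ and 3.31 ± 0.32 in Nestin;BrafKE/+ mice, overlapping ranges. Per kilobase of the longest transcript, Ntrk2 (1312 in Braf+/+ mice), Bdnf (189) and Ntrk3 (185) had higher values, since their merged exons sum many alternative exons, and Ntf3 kept the sixth place in Braf+/+ and the seventh in Nestin;BrafKE/+ mice. At that length Sorcs3 (130 to 146 in Braf+/+ mice) lay below Bdnf (182 to 212) and Ntrk3 (166 to 202) without overlap.

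**Figure D3:**
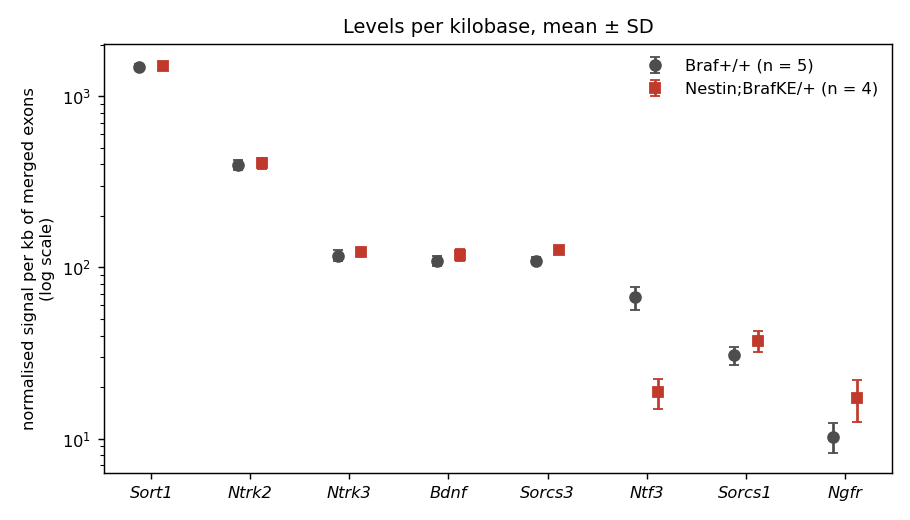
Mean normalised signal per kilobase of merged exons (y axis, log scale) of the 8 genes, ordered by their level in Braf+/+ mice, with grey circles for Braf+/+ (n = 5), red squares for Nestin;BrafKE/+ (n = 4) and bars for ± SD. Ntf3 is at 66.8 and 18.7, the second within the range of Ngfr, while Sort1, at 1488.5 and 1502, heads both groups.

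Whether other genes of the pathway differed between the genotypes was tested in 7 lists, which hold 137 genes without the 8 above. Of the 127 tested, 13 rose and 9 fell at an adjusted p under 0.05, or 17.3%, beside 2.88% of all genes tested. The median log2 difference of the 127 genes was 0.01 and that of all genes 0.0003. The lists were compiled with earlier results of these data known and include Vgf and Npy, which had been seen to differ, so the share is not independent evidence. It also varies with the libraries that enter the contrast. The share was 3.15% beside 0.26% of all genes without Nestin;BrafKE/+ replicate 1, and 4.72% beside 0.60% without Braf+/+ replicate 4. Fewer genes passed in all whenever a library was left out, so a lost call is not by itself a lost difference. The part of the series and of the number of libraries was not tested. Nestin;BrafKE/+ replicate 1 is the only mutant of series A and Braf+/+ replicate 4 the only control of series B, so leaving out either takes that whole series out of the genotype difference. Series C likewise needs both of its libraries. Without Nestin;BrafKE/+ replicate 1, 4 of the 22 genes kept their call (Cpe, Npy, Nr4a2 and Vgf) while 42 genes passed in all, and without Braf+/+ replicate 4, 6 kept it (Kcnip3, Npy, Nr4a2, Pcsk6, Shc3 and Vgf) while 97 passed in all. Without Nestin;BrafKE/+ replicate 3 12 kept it, and without each of the other libraries 14 to 18.

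**Figure D4:**
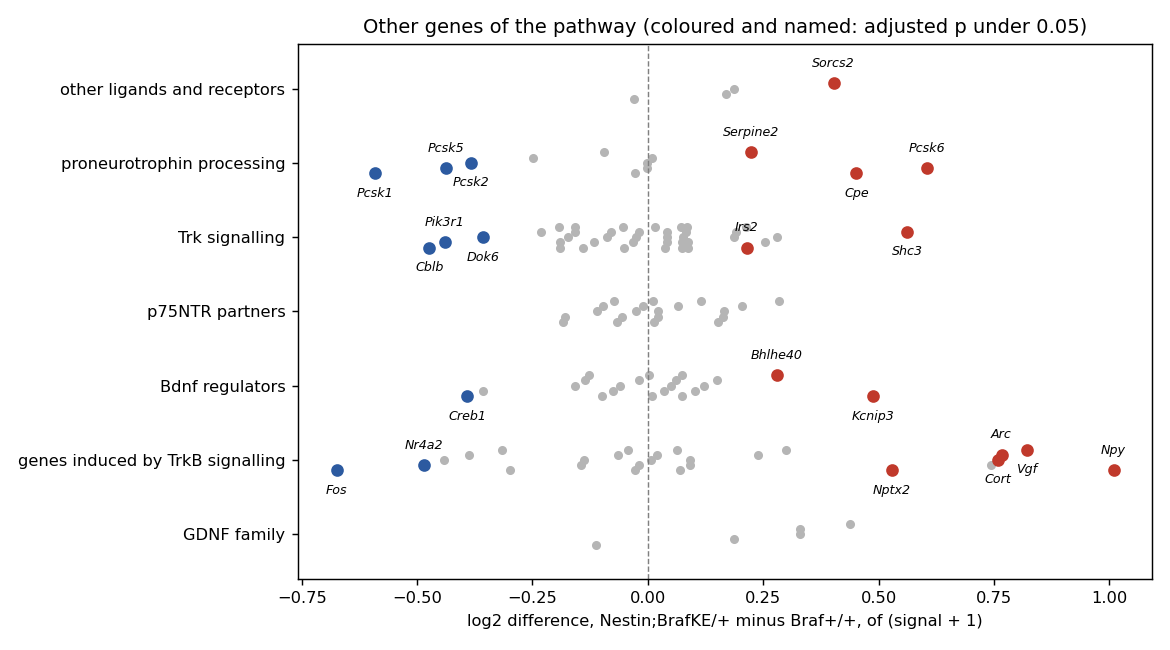
Log2 difference between genotypes (x axis, Nestin;BrafKE/+ minus Braf+/+, of the signal plus 1) of the 127 other pathway genes, 1 point per gene, in rows by list, with coloured and named points for an adjusted p under 0.05 (red higher, blue lower) and grey points for the rest. Calls fall on both sides in processing, Trk signalling, regulators and induced genes, and none is seen among the p75NTR partners or the GDNF family.

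Among the remaining ligands and receptors, Sorcs2, a sortilin family member that acts with p75NTR in proBDNF signalling, rose from a control mean of 1015 ± 40.3 (SD) to a mutant mean of 1342 ± 29.6 (SD), a log2 difference of 0.40 (adjusted p = 0.00653), with 0.39, 0.48 and 0.32 in series A, B and C. The call was lost without Nestin;BrafKE/+ replicate 1 and without Braf+/+ replicate 4 (highest adjusted p = 0.0674), and without Braf+/+ replicates 2 and 4 together (adjusted p = 0.0900). Sorl1, another family member, had a log2 difference of 0.19 that did not pass (adjusted p = 0.123). Ntf5, which encodes the second TrkB ligand, was in the table but under the minimum mean of 10.

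Of 12 genes of proneurotrophin processing 6 passed the test, 3 in each direction. The convertases of the regulated secretory pathway both fell, Pcsk1 from 645.5 ± 68.3 to 428 ± 45.2 (log2 difference -0.59, adjusted p = 0.0202) and Pcsk2 from 5090 ± 287 to 3901 ± 125 (-0.38, adjusted p = 0.00756). Pcsk5 fell by 0.44 on the log2 scale (adjusted p = 0.0396), and Pcsk6, a related convertase, rose from 469 ± 28.8 to 713.5 ± 32.4 (0.61, adjusted p = 0.00425). Furin, which cuts proneurotrophins in the constitutive pathway, had a difference of 0.01 (adjusted p = 0.953). Cpe, the carboxypeptidase that trims cut precursors and sorts proBDNF to granules, rose from 58856.5 ± 4295 to 80661.5 ± 7849 (0.45, adjusted p = 0.0195), and Serpine2, an inhibitor of extracellular serine proteases, by 0.22 (adjusted p = 0.0457). Pcsk6 lost its call without Nestin;BrafKE/+ replicate 1 and without Braf+/+ replicates 2 and 4 together (adjusted p = 0.0613), Pcsk2 without that library or Braf+/+ replicate 4, and Cpe without Braf+/+ replicate 4 or 5 or Nestin;BrafKE/+ replicate 4. Pcsk1 lost it in 4, Serpine2 in 7 and Pcsk5 in 8 of the 9 fits that left out 1 library. In these fits and that without Braf+/+ replicates 2 and 4, their log2 differences kept their direction. They ran from -0.71 to -0.42 (Pcsk1), 0.18 to 0.27 (Serpine2) and -0.47 to -0.39 (Pcsk5).

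Of 39 genes of Trk signalling 2 rose and 3 fell. Shc3, the neuronal SHC adaptor that binds active Trk receptors, rose from 499 ± 25.8 to 736 ± 22.3 (log2 difference 0.56, adjusted p = 0.00413), and Irs2, an adaptor to PI3 kinase, by 0.21 (adjusted p = 0.0479). Pik3r1, the main regulatory subunit of PI3 kinase, fell by 0.44 on the log2 scale (adjusted p = 0.0178), the ubiquitin ligase gene Cblb by 0.47 (adjusted p = 0.0210) and the adaptor gene Dok6, whose product binds TrkC, by 0.36 (adjusted p = 0.0420). Shc3 had an adjusted p of 0.0554 when Nestin;BrafKE/+ replicate 1 was left out and of 0.0685 when Braf+/+ replicates 2 and 4 both were. Cblb lost its call in 3, Pik3r1 in 5, Dok6 in 6 and Irs2 in all 9 of the fits that left out 1 library. Of the 20 p75NTR partners 0 passed by limma (6 had an unadjusted p under 0.05), and the largest differences were those of Traf4, an adaptor (0.28, adjusted p = 0.240), and Bex1, a p75NTR-binding protein (0.20, adjusted p = 0.186). The share of all genes with an unadjusted p under 0.05 is not given here. Nothing is therefore read from such counts, for this list or the lists below.

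Of 21 genes known to regulate Bdnf transcription 2 rose and 1 fell, while Bdnf itself differed by 0.11. Creb1, the factor that binds the CRE, fell from 1229 ± 69.5 to 938 ± 52.5 (log2 difference -0.39, adjusted p = 0.0176). Kcnip3, which encodes the calcium-regulated repressor DREAM, rose from 1516 ± 87.9 to 2128 ± 132 (0.49, adjusted p = 0.00565), and Bhlhe40, an E-box repressor, by 0.28 (adjusted p = 0.0472). The call of Kcnip3 was lost without Nestin;BrafKE/+ replicate 1 (adjusted p = 0.0674), that of Creb1 without any 1 of 4 libraries and that of Bhlhe40 without any 1 of 8.

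Of 26 genes that TrkB signalling is known to induce, many of them general targets of ERK and of neuronal activity, 5 rose and 2 fell. Npy, a neuropeptide of interneurons, rose from a control mean of 531 ± 41.8 (SD) to a mutant mean of 1071 ± 94.1 (SD), a log2 difference of 1.01 (adjusted p = 0.00105), and Vgf, a secreted neuropeptide precursor, by 0.82 (adjusted p = 0.00261). Both kept their call without any 1 library and without Braf+/+ replicates 2 and 4. Arc, a synaptic immediate early gene, rose from 1542 ± 161 to 2632 ± 373 (0.77, adjusted p = 0.00707), Cort, an interneuron peptide, by 0.76 (adjusted p = 0.0210) and Nptx2, a pentraxin of excitatory synapses, by 0.53 (adjusted p = 0.0187). The genes that fell both encode transcription factors, Fos from 122.5 ± 13.1 to 76.4 ± 8.84 (-0.67, adjusted p = 0.0457) and Nr4a2 from 1250 ± 63.8 to 893 ± 20.6 (-0.48, adjusted p = 0.00425). Leaving out 1 library lost the call of Arc in 2, of Cort and Nptx2 in 3 and of Fos in 8 of 9 fits, and of Nr4a2 in 0, though Nr4a2 lost it without Braf+/+ replicates 2 and 4 together (adjusted p = 0.0728). As a family outside the neurotrophins that signals through another kinase, the 5 GDNF family genes tested held 0 calls by limma (2 had an unadjusted p under 0.05), with the largest differences in Ret, the receptor kinase (0.44, adjusted p = 0.484), and Nrtn, a ligand (0.33, adjusted p = 0.560).

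Some marker lists moved with the genotype and others did not, and levels in Nestin;BrafKE/+ against Braf+/+ libraries are given for the values above. The endothelium (-0.11 to 0.07 against -0.13 to 0.25) and thalamus (-0.15 to 0.14 against -0.26 to 0.09) lists overlapped. So did the cortex (-0.08 to 0.05 against -0.11 to 0.13) and the striatum and septum lists (-0.12 to 0.34 against -0.31 to 0.11). How many lists would separate by chance was not worked out, so nothing is read from their number. Among pyramidal neurons, in which Bdnf is known, the CA1 list had a higher level in all 4 mutants than in all 5 controls (0.06 to 0.20 against -0.21 to -0.05), with 2 of 7 genes past the threshold, Fibcd1 (0.40, adjusted p = 0.0182) and Wfs1 (0.61, adjusted p = 0.000371), the second named after its value was seen. The level of the excitatory neuron list was -0.05 to -0.03 against -0.03 to 0.14, with 3 mutants below every control. Of its 7 genes 3 were higher and 4 lower, and 1 passed, Neurod2 (-0.53, adjusted p = 0.0103), named after its value was seen. Its defining gene Slc17a7 had a difference of -0.10 (adjusted p = 0.457). The CA3 list had a lower level (-0.30 to -0.00 against -0.13 to 0.34), with 3 mutants below every control and 0 of 6 genes past the threshold by limma, 3 having an unadjusted p under 0.05. Its genes were 2 higher and 4 lower, and the defining gene Grik4 was higher by 0.09 (adjusted p = 0.658). The lowest, Iyd, named after its value was seen, had a low signal of 32.9 ± 8.56 against 78.9 ± 21.3 (-1.23, adjusted p = 0.0505). The levels of the interneuron list (0.07 to 0.16 against -0.15 to -0.04), the astrocyte list (0.09 to 0.15 against -0.11 to -0.06) and the oligodendrocyte list (0.11 to 0.25 against -0.32 to 0.03) were also higher in all 4 Nestin;BrafKE/+ than in all 5 Braf+/+ libraries, as were those of the oligodendrocyte precursor list and the microglia list (0.01 to 0.17 against -0.16 to 0.01; 0 of 8 genes past the threshold by limma, 3 with an unadjusted p under 0.05). Of the interneuron, astrocyte and oligodendrocyte lists 1, 2 and 4 of 10 genes passed the threshold, all higher. The interneuron gene that passed was Npy itself. Npy and Sst are on both the interneuron list and the list of genes induced by TrkB signalling, so the 2 lists are not separate readings. Gad1, the defining interneuron gene, had a difference of 0.04 (adjusted p = 0.780) beside Npy and Cort, Aqp4 of astrocytes one of 0.25 (adjusted p = 0.0633) beside Ntrk2 and Serpine2, and Mog of oligodendrocytes rose by 0.53 (adjusted p = 0.0278). The choroid plexus list ran from -1.16 to 2.86 in Braf+/+ and from -2.54 to 0.10 in Nestin;BrafKE/+ libraries, with 0 of 8 genes past the threshold by limma and 2 with an unadjusted p under 0.05. It was highest in Braf+/+ replicates 2 and 4. Without these 2 libraries Ntf3 had a difference of -1.91, and 3 of the 127 pathway genes passed (Kcnip3, Npy and Vgf) beside 58 of all genes. The blood list ran from -0.24 to 0.71 in Nestin;BrafKE/+ and from -0.22 to -0.09 in Braf+/+ libraries. There 3 mutants lay above and 1 below every control, and 0 of 5 genes passed the threshold by limma. The part of these cell types in the differences was not tested.

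**Figure D5:**
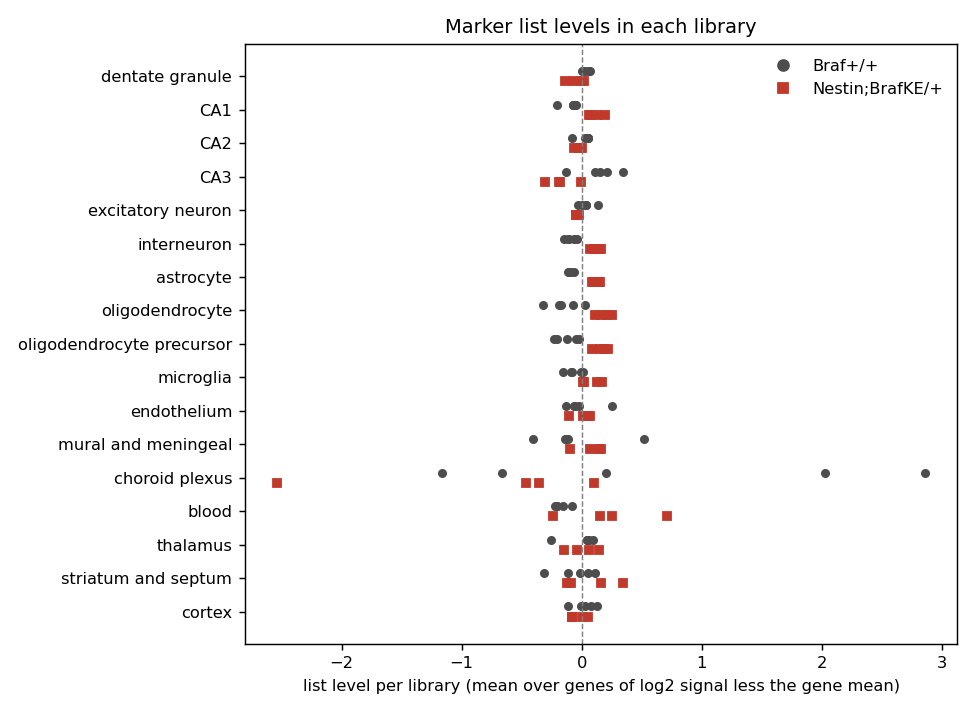
Level of 17 marker lists in each library (x axis, log2 signal less each gene's mean, averaged over the list), with 1 grey circle per Braf+/+ library and 1 red square per Nestin;BrafKE/+ library. The CA1, interneuron, astrocyte, oligodendrocyte, oligodendrocyte precursor and microglia rows separate the genotypes with the mutants higher. The dentate granule and CA2 rows overlap, the first with 3 of 4 mutants below every control. The choroid plexus row spreads from -2.54 to 2.86 with Braf+/+ replicates 2 and 4 at the top.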

How the data were processed

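RNA of dissected mouse hippocampus was sequenced from 4 Nestin;BrafKE/+ and 5 Braf+/+ mice, grouped by the labels. The authors made stranded mRNA libraries, trimmed reads with TrimGalore, aligned them with STAR to GRCm39 (Gencode vM 28), quantified them with Salmon in nf-core RNAseq 3.2, adjusted for batches that the sources used here do not name, and scaled them for DESeq2. The table as deposited gives the resulting signal in normalised counts for 18275 genes, with 0 unmapped columns. The values are batch-adjusted and not reads, so the depth is unknown, no count model was used, and precision comes from the spread between libraries.

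Genes with a mean of at least 10 (16196) were fitted with limma 3.58.1 in R 4.3.3 (lmFit, eBayes with trend) on log2(signal + 1) with terms for genotype and series. The two-sided p-values were adjusted by Benjamini and Hochberg's method over all genes tested, at a threshold of 0.05. Differences and intervals come from this fit, and those within a series are of its group means. The step was tested on simulated data. Python 3.11.15, pandas 2.3.3 and matplotlib 3.10.9 were used for the rest. Coordinates and exon lengths are from Gencode vM39 on GRCm39, promoters from RefSeq on GRCm38.p6, in which 6 of the 8 genes had an entry (13 promoters). Ntrk3 and Sort1 had none. Protein sequences were not analysed here.

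The 8 genes, the pathway and marker lists and the rule for named genes were chosen with earlier results of these data known. The rule names the 8 genes, each pathway gene past the threshold, the largest differences where fewer than 2 of a list passed, Braf and Dusp6, the first gene of a marker list, and the 5 genes most like Ntf3, Bdnf and Ntrk2. Ntf5 and Furin were named after their values were seen, and a few genes of the lists are not reported here. Replicate numbers did not pair the samples.  The alternatives comprised pseudocounts of 0.5 and 8, a minimum mean of 50 or none, quantile and median-of-ratios scaling, no series term, 4 name prefixes for the 3 series, a replicate block, robust eBayes, array quality weights, no trend and leaving out each library. Leaving out Braf+/+ replicates 2 and 4 together was chosen after seeing the data.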

Additional observations from a re-analysis of the deposited data

Results flagged for a closer look

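Bdnf in Braf+/+ replicate 4, with a signal of 934, stood apart from the other 4 controls, which lay between 798 and 827. Its gap to the nearest control was 0.792 of the range of the group. The same check on 60 groups of values, those of 30 genes in both genotypes, marked this 1 value, where chance marks about 3. That library is the only control of series B and had the second highest choroid plexus level, and the log2 difference of Bdnf without it, which takes series B out of the contrast, was 0.24, as against 0.11 with it. The part of either in the value was not tested.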

How the results depend on the processing

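The alternatives reuse the libraries in which the 8 genes were chosen, so nothing is read from the calls of these genes. The log2 difference of Ntf3 was negative and past the threshold in all 22 alternatives, from -1.99 to -1.44. The alternatives are not all distinct, since leaving out Nestin;BrafKE/+ replicate 4 or Braf+/+ replicate 5 gave the same -1.99. Ntrk3, Bdnf, Sorcs1, Sorcs3 and Ngfr kept their direction in every alternative that tested them, and Ntrk2 and Sort1 changed sign in 1 each (Ngfr was not tested at a minimum mean of 50). Of the 8 genes, 3 passed with no series term (Ntf3, Ngfr and Sorcs3), and 2 (Ntf3 and Sorcs3) with the replicate block, whose same-numbered libraries had correlations of deviations from -0.39 to 0.41 and did not all correlate best with their own number. The pathway genes past the threshold, higher and lower, numbered 21 and 19 with no series term (2260 of all genes), 8 and 3 with 4 name prefixes (165 of all genes), 4 and 1 with no mean-variance trend (72 of all genes), 16 lower with the replicate block (1405 of all genes), and 3 and 0 without Braf+/+ replicates 2 and 4 (58 of all genes), where Bdnf had a difference of 0.24. Array quality weights gave 258 calls over all genes. Leaving out 1 library, which for Nestin;BrafKE/+ replicates 1 and 4 and Braf+/+ replicates 4 and 5 takes a whole series out of the contrast, gave 3 to 11 pathway genes higher, 1 to 8 lower and 42 to 371 of all genes, and log2 differences of -1.99 to -1.44 for Ntf3, 0.0062 to 0.24 for Bdnf, -0.10 to 0.10 for Ntrk2 and 0.080 to 0.41 for Sorcs1. The causes were not tested. With an unknown depth, the spread between libraries sets the limit, with a 95% interval of 0.15 to 1.30 for Ngfr and -0.09 to 0.12 for Sort1.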

Other observations

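The genes whose log2 signal followed that of Ntf3 most closely over the 9 libraries, among 13230 genes with a mean of at least 50, were Srek1ip1 (Pearson's r 0.997), Epb41 (0.990), Pdyn (0.990), Arhgap10 (0.990) and Prkce (0.989). The points share the libraries and the genotype difference. Pdyn, which encodes the opioid precursor prodynorphin of dentate granule neurons, had a log2 difference of -0.93, and Arhgap10 one of -0.67, whereas those of Srek1ip1 and Prkce were -0.18 and -0.19. Once genotype and series were removed, none of these 5 was among the 5 nearest to Ntf3.

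Bdnf was followed most closely by Polr1b (r 0.986), Cdc26 (0.980), Ganc (0.980), Zbtb10 (0.967) and Cradd (0.966), and none of these 5 was among the nearest once genotype and series were removed. Genes that followed Ntrk2 closely included Plce1 (0.983), Adamtsl5 (0.961), Hrh1 (0.960) and Btbd1 (0.956), and Plce1 was also the nearest after that step. Between the 8 genes, the largest absolute r over the 9 libraries was that of Ntf3 and Sorcs3, at -0.94. It was -0.78 once genotype and series were removed. The groups of both genes did not overlap, in opposite directions, so the first value holds the contrast known when the genes were chosen. Nothing is read from it.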
